A study of Homo sapiens with 4 samples.

Results

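The SOX factors described here are 10 transcription factor genes of the human SOX family, SOX2, SOX4, SOX5, SOX6, SOX7, SOX8, SOX9, SOX11, SOX13 and SOX21. They were taken by name out of 20098 protein-coding genes in the GENCODE annotation of GRCh37 (hg19), the build of the peak lists. Their chromatin was read in 4 cancer cell lines: COLO-205 from colon cancer, DU-145 from prostate cancer, and OVCAR-3 and SKOV-3 from ovarian cancer. H3K27ac, the acetylation of lysine on the histone H3 tail that marks active promoters and enhancers, was immunoprecipitated from each untreated line and sequenced in 1 library per line. There was therefore no replicate error, no line was tested against another, and the intervals given cover counting error only. A promoter peak overlapped 1 kb either side of any transcript start of the gene, and a distal peak lay within 100 kb of the gene body and away from the promoters of all protein-coding genes. By these rules the members held 100 of 85576 peaks in COLO-205, 55 of 75468 in DU-145, 125 of 76093 in OVCAR-3 and 8 of 14001 in SKOV-3.

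SOX proteins bind the minor groove of DNA through an HMG box and bend it, and their preferred letters are close to ACAAAG or ACAATG. The family is divided into classes whose members resemble each other outside the box as well. SOXB and SOXC genes are best known from stem and progenitor cells, SOXD and SOXE genes from cartilage, glia and gonad, and SOXF genes from endoderm and vessels, and several of them are active in carcinomas.

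The 4 libraries differed mainly in the length of their lists. The tags behind each library, solved from the deposited values, came to between about 22400000 in SKOV-3 and 36000000 in DU-145, and the SKOV-3 list was the shortest by far. Of the markers listed for each tissue, COLO-205 had promoter peaks at 4 of 7 colon genes (CDX2, LGALS4, VIL1 and GPA33), and KRT20, CDX1 and CDH17 had none. DU-145 had one at TMPRSS2, a prostate gene, and none at KLK3, which encodes prostate-specific antigen, while COLO-205 had promoter peaks at both. Of 6 ovarian genes OVCAR-3 had promoter peaks at 6, COLO-205 at 4, DU-145 at 3 and SKOV-3 at 2 (PAX8 and SOX17), so both other lines had more of them than SKOV-3. The 3 blood markers had no promoter peak in any line, while of 4 melanocyte and glia genes COLO-205 had 1 marked, DU-145 and OVCAR-3 had 2 each and SKOV-3 had 0.

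The stretches just upstream of 3 starts are shown first, because the promoter peaks sat differently around each of them. RefSeq (GRCh38.p14) gave promoter sequences for 6 of the 10 members, and the 250 bases upstream of the start were matched without mismatch to GRCh37. In these lines capitals mark GGGCGG, the core of the GC box, and CCAAT, the CCAAT box, on either strand. The SOX2 stretch is chr3:181429463-181429712 on the plus strand, the SOX21 stretch chr13:95364800-95365049 on the minus strand and the SOX4 stretch chr6:21593732-21593981 on the plus strand, each read 5′ to 3′.
SOX2 promoter: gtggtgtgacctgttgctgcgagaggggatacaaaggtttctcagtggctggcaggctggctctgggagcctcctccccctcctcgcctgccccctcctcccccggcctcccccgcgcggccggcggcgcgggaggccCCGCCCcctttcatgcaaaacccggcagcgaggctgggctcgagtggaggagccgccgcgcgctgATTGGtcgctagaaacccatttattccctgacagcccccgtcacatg
SOX21 promoter: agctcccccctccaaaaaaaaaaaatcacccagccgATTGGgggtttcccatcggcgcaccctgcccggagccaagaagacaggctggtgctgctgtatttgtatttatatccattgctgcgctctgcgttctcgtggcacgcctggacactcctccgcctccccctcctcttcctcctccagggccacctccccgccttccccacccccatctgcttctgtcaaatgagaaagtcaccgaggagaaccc
SOX4 promoter: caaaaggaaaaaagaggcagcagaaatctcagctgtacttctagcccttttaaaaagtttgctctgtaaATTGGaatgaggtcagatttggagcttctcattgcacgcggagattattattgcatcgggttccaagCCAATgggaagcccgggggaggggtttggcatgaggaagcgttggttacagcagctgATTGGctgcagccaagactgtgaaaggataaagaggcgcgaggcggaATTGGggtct
The SOX2 stretch was the richest of the 3 in G and C, at 68.8% with 20 CpG pairs, beside medians of 58% and 11 over 27305 promoters of the same length. The SOX21 stretch held 58.8% G and C with 11 CpG pairs. The SOX4 stretch held 48.8% with 8, and CCAAT letters at 4 places. GGGCGG was present in 42.3% and CCAAT in 33.0% of all these promoters. Peaks of OVCAR-3 covered 141 of the 250 bases at SOX2, and the COLO-205 peak at SOX21 covered all 250. At SOX4 no peak of any line covered a base of the stretch: the peaks began inside the gene, 344 bp from the start in DU-145, 479 bp for OVCAR-3, 491 bp for SKOV-3 and 681 bp for COLO-205.

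Promoter peaks were present at 6 members in COLO-205 (SOX2, SOX21, SOX4, SOX6, SOX13 and SOX9), where 51.3% of all protein-coding genes had one. DU-145 had them at 5 members (SOX4, SOX5, SOX6, SOX13 and SOX9), beside 60% of all genes. OVCAR-3 had them at 7 (SOX2, SOX4, SOX11, SOX5, SOX6, SOX13 and SOX9), beside 60.6%. SKOV-3 had them at 2 (SOX4 and SOX6), beside 31.7%. These counts lay near the shares of all genes and are read as no result about the family. By the number of lines marked, the members were spread evenly: 2 each in 0, 1, 2, 3 and 4 lines, beside 24.8%, 15.4%, 16.5%, 18.1% and 25.2% of all protein-coding genes. SOX4 and SOX6 were marked in all 4 lines and SOX8 and SOX7 in none.

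**Figure D1:**
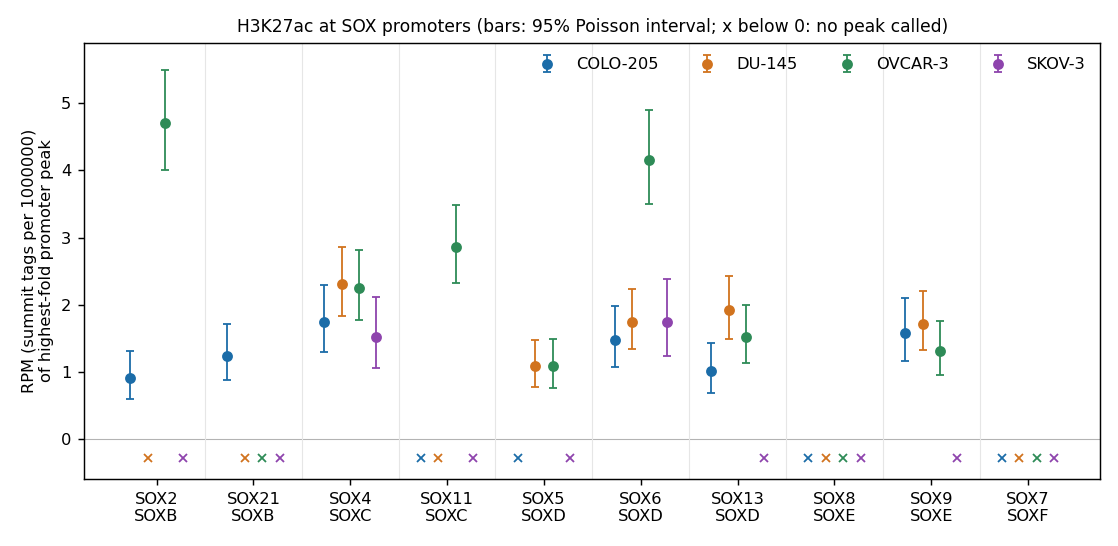
RPM, the summit tags per 1000000 tags of the library, of the highest-fold promoter peak (vertical axis) for each member, grouped by SOX class, with 1 point per line and bars for the exact 95% Poisson interval; a cross under 0 stands for no peak called, not for a measured 0. The highest points are those of SOX2 at 4.71 and SOX6 at 4.15, both in OVCAR-3, while the intervals of SOX4 and of SOX9 overlap across the lines that have them.

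The strength of a peak was read in 3 ways. The fold enrichment is the authors' value at the summit over the local background. The RPM is the summit pileup solved from that value and the −log10 p, per 1000000 tags of the library. The percentile places the highest promoter fold of a gene among all marked protein-coding genes of the same library. The marked members had median percentiles of 49.5 in OVCAR-3, 29.3 in SKOV-3, 24.2 in COLO-205 and 17.6 in DU-145, where the marked genes as a whole have 50 by construction. Only SOX2, SOX21, SOX4, SOX11 and SOX6 were above 50 in any line.

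SOX2, a factor of pluripotent and neural progenitor cells and the SOXB activator of the set, was marked in 2 lines and at very different strength. In OVCAR-3 its main promoter peak had a fold enrichment of 30.4, a −log10 q of 184 and 4.71 RPM (95% interval 4.01 to 5.49). COLO-205 had a fold of 5.00, a −log10 q of 10.1 and 0.906 RPM (0.597 to 1.32), so the intervals did not overlap. DU-145 and SKOV-3 had no promoter peak. The OVCAR-3 value ranked 32 of 12189 marked genes (percentile 99.7), and that of COLO-205 ranked 3766 of 10305 (63.5). In both lines a pair of peaks stood on either side of the transcript start, with a gap of 241 bp in OVCAR-3 and 532 bp in COLO-205 that held the start. The OVCAR-3 pair measured 1305 and 1405 bp, with summits 426 bp upstream and 386 bp downstream. The protein-coding gene with the most similar pattern over the lines was WT1, which belongs to the 6 ovarian genes counted above. Its mean percentile difference was 1.84 over the 2 marked lines.

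SOX21, the SOXB gene whose product acts as a repressor, had a promoter peak in COLO-205 alone. Its fold was 4.82, with 1.24 RPM (0.874 to 1.71), the 59.0 percentile of the library. The peak was distinguished by its width rather than by its height: it covered 2892 bp, and the width percentile among marked genes was 98.96 after merging of close neighbours. It covered the start and reached 1259 bp upstream of it, and the summit lay 780 bp upstream, in an exon of the antisense gene SOX21-AS1. The chromatin assay does not separate the strands of the 2 genes. The most similar gene was CCDC182 with a percentile difference of 0, which rests on the 1 marked line.

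SOX4, a SOXC activator of progenitor cells that is often raised in carcinomas, had a promoter peak in every line. Its fold was highest in OVCAR-3 at 7.39, followed by 5.65 in DU-145, 4.94 in SKOV-3 and 3.74 in COLO-205. The RPM values were 2.25 (1.78 to 2.81), 2.30 (1.83 to 2.85), 1.52 (1.05 to 2.12) and 1.74 (1.30 to 2.29) in the same order, and all 4 intervals overlapped. The order of the lines by fold was not that by tags. The local background under the SOX4 peak, by which the fold is divided, was 13.2 and 13.9 tags in COLO-205 and DU-145 but 9.56 and 6.08 in OVCAR-3 and SKOV-3. Within its library the gene stood highest in DU-145 (percentile 69.9) and lowest in COLO-205 (24.3). All the summits lay downstream of the start, between 648 bp in SKOV-3 and 1964 bp in DU-145, in the single exon of the gene, so the folds and tags were read at different sites. With the summit itself required within 1 kb of the start, SOX4 was no longer marked in DU-145 and OVCAR-3, and with 500 bp either side of the start it was not in COLO-205. The most similar gene was ANKRD52, with a mean percentile difference of 2.36 over 4 lines.

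SOX11, the second SOXC gene and known from the developing nervous system, was marked in OVCAR-3 alone. There it had peaks of 1504 and 1452 bp, separated by 77 bp, with folds of 17.7 and 8.55. The stronger peak gave 2.86 RPM (2.33 to 3.49), percentile 95.04, rank 605 of 12189. Its summit lay 506 bp upstream of the start and that of the other peak 748 bp downstream. The most similar gene over this 1 line was LAIR1, with a difference of 0.0984.

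The 3 SOXD genes encode proteins without an activation domain of their own, and SOX5 and SOX6 act together with SOX9 in cartilage. They have many alternative starts, and most of these were unmarked. For SOX5 2 of 11 clusters of starts had a peak in any line, for SOX6 3 of 14 and for SOX13 3 of 5. The cluster with the annotated canonical start of SOX5 and that of SOX6 had no peak in any line, while that of SOX13 was marked in 3 lines.

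SOX5 was marked at the cluster farthest upstream in DU-145 and OVCAR-3. DU-145 had a fold of 2.97 and 1.08 RPM (0.769 to 1.48), and OVCAR-3 a fold of 6.07 and 1.08 (0.761 to 1.49). The 2 summits lay at different sites, 137 bp downstream of the start in DU-145 and 626 bp upstream in OVCAR-3. At the DU-145 site OVCAR-3 had another peak, with its summit 183 bp downstream, a fold of 4.65 and 1.40 RPM. The percentiles were 5.54 and 35.3. A further OVCAR-3 peak at the second cluster (fold 5.83) had 72 bases of repeat words, described below, in its summit window. ST6GAL1 was the most similar gene, with a difference of 0.181 over 2 lines.

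SOX6 was marked in all lines at its first cluster of starts, which lies 1 bp from a start of C11orf58 on the other strand. The promoter peak cannot be assigned to either gene. With the starts of protein-coding transcripts alone, SOX6 was no longer marked in any line. OVCAR-3 had a fold of 9.87 and 4.15 RPM (3.496 to 4.89). The fold was 4.07 in SKOV-3, 3.94 in DU-145 and 3.53 in COLO-205, with 1.74 (1.24 to 2.38), 1.75 (1.34 to 2.24) and 1.48 (1.07 to 1.98) RPM. The OVCAR-3 interval lay above the other three, which overlapped. C11orf58 was also the most similar gene, with a difference of 0, since the measure uses the highest-fold peak and both genes share it. With only peaks away from the starts of other protein-coding genes, a setting chosen after the values were known, SOX6 was left in OVCAR-3, at 2 further clusters with folds of 4.32 and 3.37. OVCAR-3 then had 7 marked members, COLO-205 had 5, DU-145 had 4 and SKOV-3 had 1, beside 46.4%, 41%, 46.4% and 22.8% of all protein-coding genes.

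SOX13, found in T cells and other tissues, was marked in 3 lines with low folds of 3.74 in COLO-205, 3.43 in DU-145 and 3.58 in OVCAR-3. The RPM values of these peaks were 1.01 (0.679 to 1.44), 1.91 (1.49 to 2.42) and 1.52 (1.14 to 1.99). The COLO-205 and DU-145 intervals did not overlap, but the COLO-205 value belongs to a downstream cluster of starts. At the first cluster COLO-205 had a fold of 3.45 and 1.51 RPM. COLO-205 had peaks at 3 of the 5 clusters, DU-145 and OVCAR-3 at 1 each and SKOV-3 at 0. FBXW9 was the most similar gene, with a difference of 1.23 over 3 lines.

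SOX9, a SOXE factor that determines chondrocytes and Sertoli cells and is active in intestinal crypts, was marked in the 3 lines other than SKOV-3. The folds were close to each other, at 3.54 in COLO-205, 3.57 in DU-145 and 3.60 in OVCAR-3. The RPM values were 1.58 (1.16 to 2.097), 1.72 (1.32 to 2.20) and 1.32 (0.959 to 1.76). The percentiles of its folds were low, at 17.6, 17.6 and 5.60. Over all promoter peaks of these libraries, weaker peaks of the same gene included, the median was 1.14, 1.36 and 1.58 RPM. The highest-fold SOX9 peak was above it in COLO-205 and DU-145 and below it in OVCAR-3. The local background at SOX9 was 12.6, 16.6 and 11.8, beside medians of 7.60, 11.1 and 8.71 under all promoter peaks. The gene lies on chromosome 17, where peaks per megabase were 2.77, 2.59 and 2.65 times that of the median chromosome. The part of the background in the low percentile was not tested. In COLO-205 and DU-145 a weaker peak lay upstream, and the start fell into the gap of 821 bp or 327 bp between them. DBI was the most similar gene, with a difference of 1.34 over 3 lines.

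SOX8, the other SOXE gene and known from glia and testis, had no promoter peak in any line, although its start lies 452 bp from one of LMF1. SOX7, the SOXF gene of endoderm and endothelium, had none either. SKOV-3 lacked promoter peaks at 8 of the 10 members, in a list of 14001 peaks in which 31.7% of genes were marked. When every list was shortened to that number of peaks by −log10 q, COLO-205 kept 0 of its 6 members and DU-145 kept SOX4 and SOX6. OVCAR-3 then kept SOX2, SOX4, SOX11 and SOX6, and SKOV-3 its SOX4 and SOX6. Of all protein-coding genes OVCAR-3 then had 38% marked, DU-145 37.9%, SKOV-3 31.7% and COLO-205 21.9%. The lowest −log10 q left was 30.3 for OVCAR-3, 17.0 for DU-145, 13.8 for COLO-205 and 3.004 for SKOV-3.

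**Figure D2:**
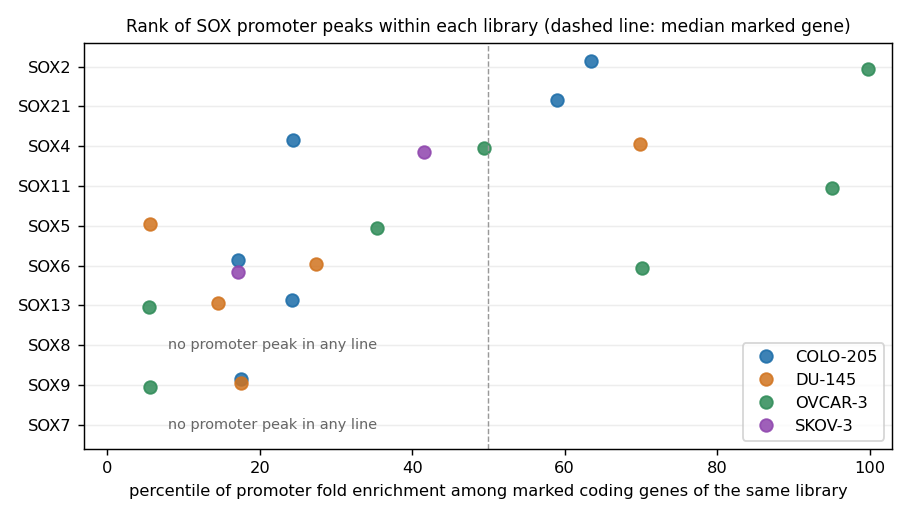
Percentile of the highest promoter fold enrichment of each member (horizontal axis) among all marked protein-coding genes of the same library, with 1 point per marked line and a dashed line at the median gene; points are shifted vertically to stay apart. SOX2 and SOX11 in OVCAR-3 lie at 99.7 and 95.04, and every point of SOX13, SOX9 and SOX5 lies left of the dashed line.

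COLO-205 had distal peaks at 9 members, beside 82.4% of all protein-coding genes, and DU-145 at 7, beside 72.5%. OVCAR-3 had them at 7 members, beside 71.5%, and SKOV-3 at 4, beside 32.1%. They numbered 89, 49, 111 and 6 in this order of lines. A distal peak lies near a gene and is not thereby assigned to it. The median fold of the members' distal peaks was 4.76, 4.35, 5.21 and 4.78, beside 4.83, 4.59, 5.28 and 5.62 over all distal peaks of the library. The counts were concentrated on a few genes: SOX5 held 76 of the peaks in OVCAR-3 and 28 in DU-145, and SOX21 held 29 in COLO-205. Without SOX5 the totals were 35 in OVCAR-3 and 21 in DU-145. Without SOX21 the COLO-205 total was 60.

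**Figure D3:**
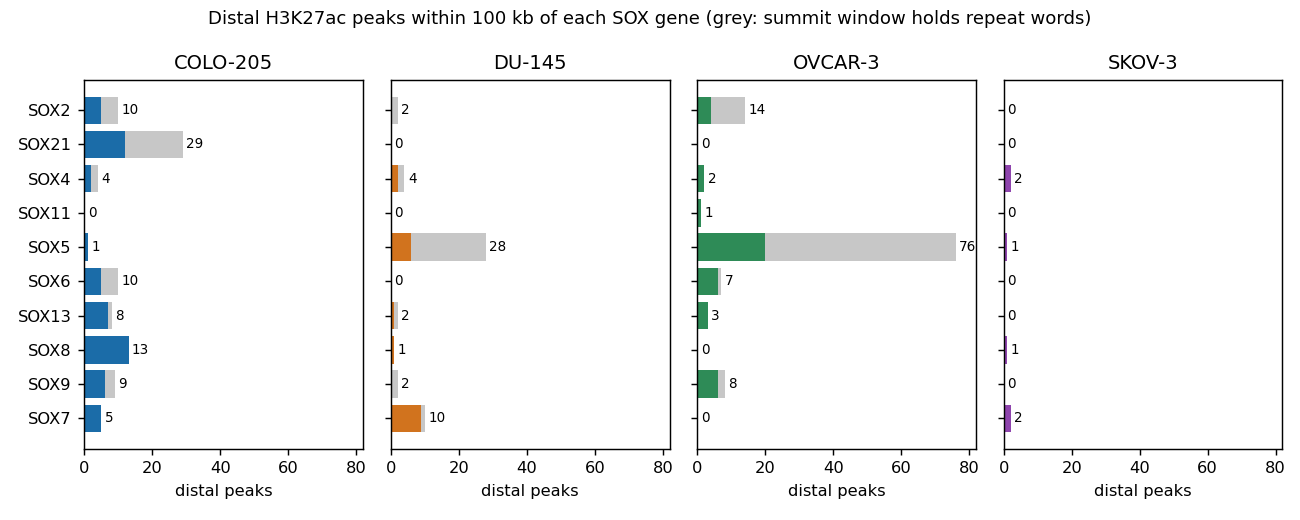
Number of distal peaks within 100 kb of each member (horizontal axis), in 1 panel per line; the grey part of a bar counts peaks whose 300 bp summit window holds repeat words, and the number at the end is the whole bar. SOX5 stands out with 76 peaks in OVCAR-3 and 28 in DU-145 and SOX21 with 29 in COLO-205, and most of the SOX5 bars are grey.

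Most of these regions were seen in 1 line. Peaks that touched each other across the lines formed 221 regions, of which 190 were found in 1 line, 28 in 2, 2 in 3 and 1 in all 4. By line, 13.5% of the members' distal peaks in COLO-205 (exact 95% Clopper-Pearson interval 7.17% to 22.4%) were overlapped by a peak of another line, beside 15.9% of all distal peaks. The share was 42.9% in DU-145 (28.8% to 57.8%), beside 25.8%, and 24.3% in OVCAR-3 (16.7% to 33.4%), beside 28.6%. In SKOV-3 it was 5 of 6 peaks, 83.3% (35.9% to 99.6%), beside 66.0%. Of the 21 overlapped DU-145 peaks, 16 were at SOX5. Without SOX5 5 of 21 DU-145 peaks were overlapped, 23.8%, below the share of all its distal peaks. At a −log10 q of at least 10, 1 of the 6 DU-145 peaks left at the members was overlapped, beside 22.6% of all its distal peaks at that minimum.

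Repeat sequence was common under the summits. The genome was searched for the 100 words of 12 letters found in the largest numbers of 28353 evenly spaced 300 bp windows, leaving out simple words. The most frequent was CTGGGATTACAG, found with its complement in 6.54% of windows, and such words belong to the Alu elements, the most abundant short interspersed repeats of the human genome. A summit window was counted as holding repeat words where these covered at least 20 of its 300 bases, which 14.8% of the genome windows did. The words were chosen after the data were seen. Among the members' distal summits 33 of 89 in COLO-205 (37.1%), 30 of 49 in DU-145 (61.2%), 69 of 111 in OVCAR-3 (62.2%) and 0 of 6 in SKOV-3 held them. Over all distal peaks the shares were 39.9%, 52.5%, 46.2% and 30.6%, and over promoter peaks 9.10%, 16.1%, 12.4% and 3.10%. SOX5 alone gave 22 of the 30 in DU-145, from its 28 distal peaks, and 56 of the 69 in OVCAR-3, from its 76. The member shares of these lines thus rest largely on SOX5 and are no trait of the members as a set. The treatment of reads that map to several places is not given in the sources used here, and its part in these peaks was not tested.

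The strongest distal summits of SOX5, SOX6 and SOX9 in OVCAR-3 are shown because they held no repeat words. Each line below gives 200 bases around the summit on the plus strand of GRCh37, with capitals for the SOX, AP-1, TCF/LEF or E-box letters spelled out after them, on either strand. They are chr12:24350553-24350752 in an intron of SOX5, chr11:16691033-16691232 in an intron shared by SOX6 and C11orf58, and chr17:70100495-70100694 in an intron of SOX9-AS1.
SOX5 in OVCAR-3: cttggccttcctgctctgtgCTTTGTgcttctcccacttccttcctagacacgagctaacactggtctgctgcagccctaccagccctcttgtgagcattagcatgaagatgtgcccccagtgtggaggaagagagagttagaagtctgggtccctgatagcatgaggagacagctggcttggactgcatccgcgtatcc
SOX6 in OVCAR-3: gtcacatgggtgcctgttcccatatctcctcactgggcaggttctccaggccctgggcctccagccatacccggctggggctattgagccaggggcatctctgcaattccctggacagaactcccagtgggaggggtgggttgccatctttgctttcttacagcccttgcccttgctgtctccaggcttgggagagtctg
SOX9 in OVCAR-3: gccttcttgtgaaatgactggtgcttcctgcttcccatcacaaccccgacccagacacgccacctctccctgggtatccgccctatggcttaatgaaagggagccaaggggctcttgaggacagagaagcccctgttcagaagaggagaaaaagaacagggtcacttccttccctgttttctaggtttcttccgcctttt
The SOX5 window held the complement of ACAAAG once, and the SOX6 and SOX9 windows held no listed letters. The SOX letters ACAAAG or ACAATG were found in the 300 bp windows of 18.9% of the members' distal peaks in OVCAR-3, 16.7% in SKOV-3, 16.3% in DU-145 and 15.7% in COLO-205. All distal peaks gave 19.6%, 19.2%, 19.8% and 16.7%. In the order COLO-205, DU-145, OVCAR-3, SKOV-3 the other letters were as follows. The AP-1 letters TGANTCA were in 1.12%, 10.2%, 7.21% and 0% of the members' windows, beside 4.91%, 7.83%, 7.25% and 6.90%. The TCF/LEF letters TCAAAG were in 12.4%, 12.2%, 9.91% and 0%, beside 8.69%, 11.0%, 10.6% and 11.4%. The E-box letters CAGGTG were in 43.8%, 53.1%, 45.9% and 66.7%, beside 43.9%, 46.7%, 45.8% and 40.5%. The member shares of SKOV-3 rest on 6 windows, of which 4 held CAGGTG, and the AP-1 share of COLO-205 is 1 of 89.

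At SOX2 OVCAR-3 had 14 distal peaks, COLO-205 had 10, DU-145 had 2 and SKOV-3 had 0. SOX2 was the nearest protein-coding gene to all of them, and its window held no other. The strongest had a fold of 8.14 in OVCAR-3, 5.95 in COLO-205 and 5.31 in DU-145, all with repeat words. Repeat words were under 10 of the 14 OVCAR-3 summits, and the strongest of the remaining 4, 45.0 kb downstream, had a fold of 5.60. Of 20 regions, 16 were in 1 line, and a region about 70.1 kb downstream, inside SOX2-OT, was found in 3 lines with folds of 4.86 in COLO-205, 5.31 in DU-145 and 6.59 in OVCAR-3. All 3 of its summits held repeat words. The whole of chromosome 3 was densely marked in OVCAR-3, at 2.19 times the peaks per megabase of the median chromosome. The SOX2 window had 6.91 distal peaks per 100 kb there and the 5 Mb on either side 7.48, and in COLO-205 the values were 4.94 and 3.90, so the window was the denser in COLO-205 and not in OVCAR-3. The promoter peak, with its fold of 30.4, stood beside a median fold of 5.67 for all peaks, promoter and distal, of the window and its flanks together. The median highest promoter fold of all marked protein-coding genes in OVCAR-3 was 7.45.

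The distal peaks of SOX21 were all found in COLO-205 and in no other line. They numbered 29, with folds from 3.69 to 7.84, and 17 of them held repeat words. The median fold of the 12 others was 5.67. The promoter peak, at 4.82, was thus no higher than its surroundings. Chromosome 13 carried 12078 peaks in COLO-205, 4.09 times the density of the median chromosome and the highest of all chromosomes, and 249, 353 and 147 peaks in DU-145, OVCAR-3 and SKOV-3. The window held 14.3 distal peaks per 100 kb and its flanks 12.1. The part of the chromosome in the SOX21 peaks was not tested.

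**Figure D4:**
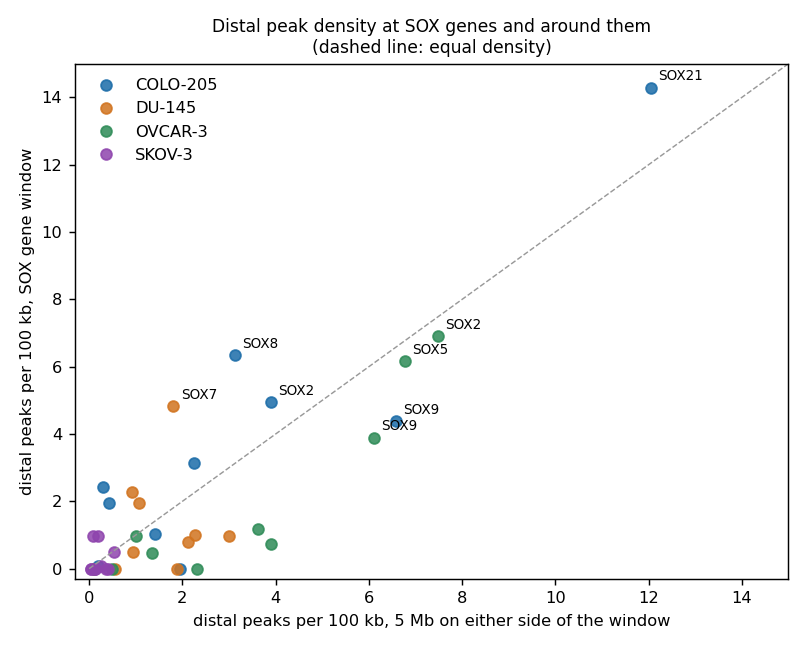
Distal peaks per 100 kb in the window of each member (vertical axis) against those in 5 Mb on either side of it (horizontal axis; less for SOX8, which lies near a chromosome end), with 1 point per gene and line and a dashed line at equal density; genes above 4 on either axis are named. SOX21 in COLO-205 lies far out at 14.3 against 12.1, and SOX9 lies under the line in COLO-205, DU-145 and OVCAR-3.

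At SOX4 the peaks reached beyond the promoter window into the gene. A region of the single exon, chr6:21595159-21596207, was marked in all 4 lines and was the only one of the distal regions to be so. Its folds were 7.39 in OVCAR-3, 6.36 in SKOV-3, 5.65 in DU-145 and 5.09 in COLO-205. In DU-145 and OVCAR-3 it was the promoter peak itself, 2864 and 2047 bp wide, that covered it. In SKOV-3 the peak there, with a fold of 6.36, was higher than that at the promoter, with 4.94. A second region of the exon, chr6:21596729-21597092, was marked in DU-145, OVCAR-3 and SKOV-3, and held the strongest distal peak of OVCAR-3, with a fold of 4.80. None of the summits in the gene held repeat words. DU-145 and OVCAR-3 also shared a region about 5.86 kb upstream, with folds of 3.46 and 3.62. The strongest distal peaks in COLO-205 and DU-145 lay in introns of the long non-coding gene CASC15, at 102.1 and 87.1 kb downstream, with folds of 5.65 and 4.18, and both held repeat words.

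SOX11 had no distal peak in COLO-205, DU-145 or SKOV-3 and 1 in OVCAR-3. That peak lay in the gene, 4.58 kb from the start, measured 1751 bp and had a fold of 9.87 with 2.63 RPM. With the 2 promoter peaks it made up every peak of the SOX11 window in the series. The window of OVCAR-3 held 0.478 distal peaks per 100 kb and its flanks 1.34.

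**Figure D5:**
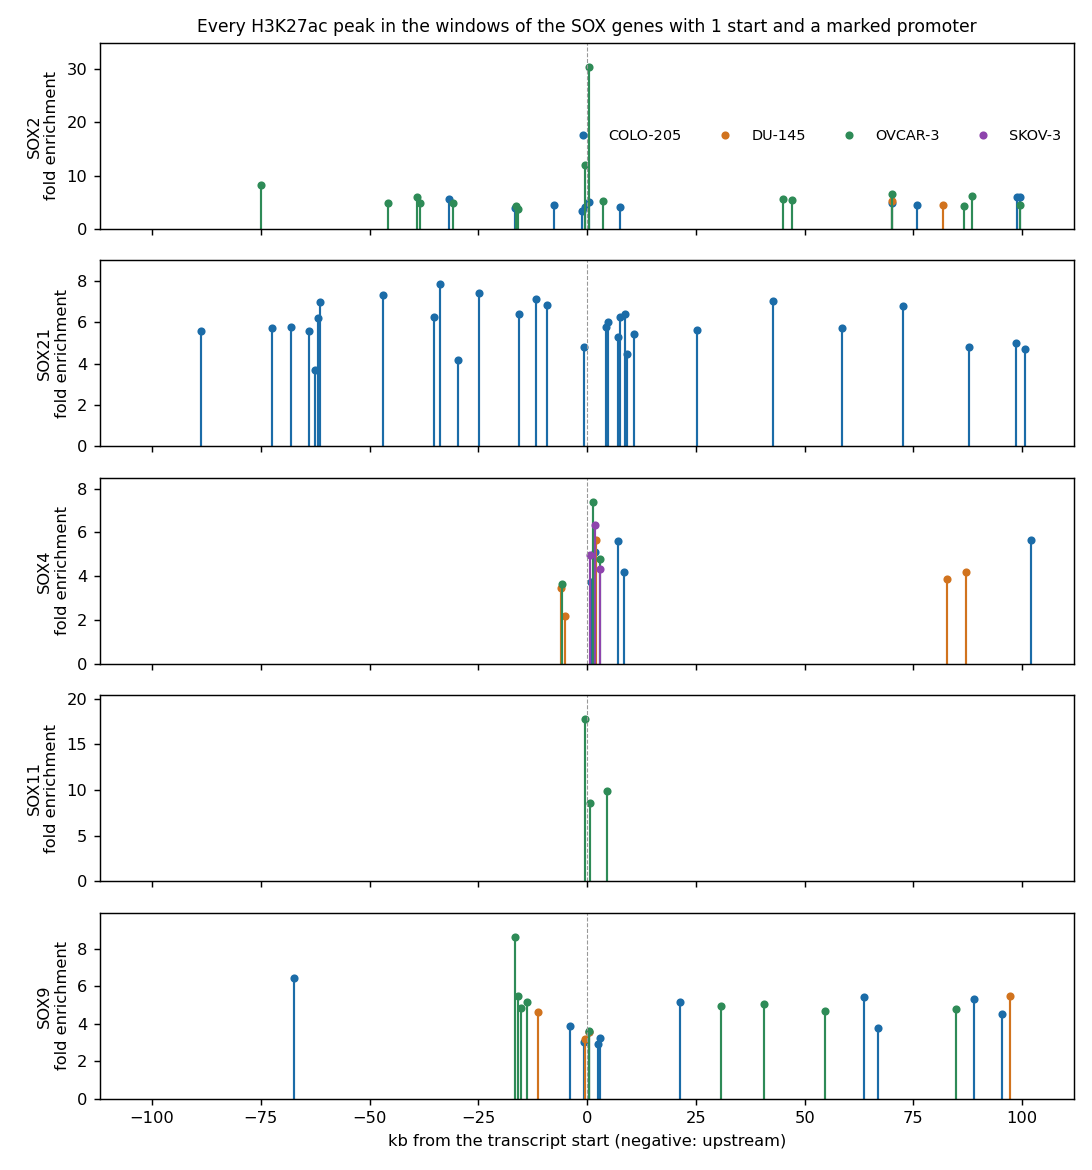
Fold enrichment (vertical axis, a scale of its own in each panel) of every promoter and distal peak at the 5 marked members with a single start, against the distance of its summit from the start in kb (negative is upstream), coloured by line. The highest peak of the SOX2 panel and of the SOX11 panel is an OVCAR-3 peak at the start, with folds of 30.4 and 17.7, SOX4 peaks lie both within the gene and outside it, and the SOX21 peaks spread over the whole window.

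SOX5 is a gene of 1033 kb, and its window of 1233 kb held 76 distal peaks in OVCAR-3, 28 in DU-145, and 1 each in COLO-205 and SKOV-3. Of these, 59 in OVCAR-3 and 22 in DU-145 lay inside the gene. OVCAR-3 had 6.16 distal peaks per 100 kb in the window and 6.77 in the flanks. In DU-145 the window had 2.27 and the flanks 0.920, so the window was the denser of the pair in DU-145 and not in OVCAR-3. Repeat words were present at 56 of the OVCAR-3 and 22 of the DU-145 summits. Of the 88 regions 18 were in 2 lines, and 16 of them joined DU-145 and OVCAR-3, with the higher fold in OVCAR-3 at 13. Over all 10040 distal regions that these lines share, OVCAR-3 had the higher fold at 68.3%. Among the 16 overlapped DU-145 peaks 14 held repeat words, and among the 12 others 8. The strongest OVCAR-3 peak, with a fold of 11.1 and a −log10 q of 39.1, held none and was in no other line. It lay inside the gene, 160 kb from the nearest start. The strongest in DU-145 had a fold of 5.34 and held repeat words, and the single peaks of COLO-205 and SKOV-3 had folds of 3.85 and 4.77 and held none.

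SOX6 had 10 distal peaks in COLO-205, 7 in OVCAR-3 and 0 in DU-145 and SKOV-3. Their density was 1.03 per 100 kb in COLO-205 with 1.42 in the flanks and 0.719 in OVCAR-3 with 3.91. Among all protein-coding genes these densities lay at percentiles 41.9 and 44.8. The strongest was an OVCAR-3 peak of 1441 bp with a fold of 15.0, a −log10 q of 55.9 and 1.90 RPM. It lies in introns of SOX6 and of C11orf58, and the start of C11orf58 is the nearest. The strongest in COLO-205, in an intron of SOX6, had a fold of 7.44 and held repeat words. One region beyond the end of the gene, 119 kb from its nearest start, was shared, with folds of 6.98 in COLO-205 and 6.26 in OVCAR-3.

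SOX13 had 8 distal peaks in COLO-205, 2 in DU-145 and 3 in OVCAR-3, with highest folds of 4.88, 4.32 and 4.43. The window holds 5 other protein-coding genes. A region inside the gene, 1.69 kb downstream of an internal start, and another beyond its end, 104 kb from the nearest start, were marked in COLO-205 and OVCAR-3. The density exceeded that of the flanks in COLO-205, at 3.14 against 2.24, and was below it in DU-145 (0.785 against 2.12) and OVCAR-3 (1.18 against 3.62).

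SOX9 was marked at its promoter in 3 lines with similar folds and shared none of its distal regions between them. Of all distal peaks, only 15.9% in COLO-205, 25.8% in DU-145 and 28.6% in OVCAR-3 were overlapped by another line. With so few peaks at SOX9 the lack of overlap is read as no result about the gene. The 19 SOX9 regions were divided into 9 in COLO-205, 2 in DU-145 and 8 in OVCAR-3. SOX9 was the nearest protein-coding gene to all their peaks. The strongest had a fold of 6.43 in COLO-205, 67.4 kb upstream in an intron of ROCR, 5.46 in DU-145, 97.2 kb downstream, and 8.63 in OVCAR-3, 16.6 kb upstream in an intron of SOX9-AS1. The window was less dense than its flanks in each of the 3 lines, with 4.38 against 6.58, 0.974 against 3 and 3.89 against 6.11 distal peaks per 100 kb. Repeat words were under 3, 2 and 2 of the summits in the same order.

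The members without a promoter peak also had distal peaks. SOX8 had 13 in COLO-205, 1 in DU-145 and 1 in SKOV-3, and SOX8 was the nearest protein-coding gene to 3, 0 and 0 of them. The highest folds in COLO-205 and DU-145 were 4.76 and 2.94, both in introns of LMF1. The SKOV-3 peak, with a fold of 6.44, lay 101 kb downstream, nearest to SSTR5, at a region that COLO-205 also had with 4.62. SOX7 had 5 in COLO-205, 10 in DU-145 and 2 in SKOV-3, and was the nearest to 2, 0 and 0. The strongest, with a fold of 5.57 in DU-145, lay in an intron of RP1L1, a gene of photoreceptor cells, and the highest in COLO-205 and SKOV-3 were 5.33 and 4.78. The window of SOX8 was denser than its flanks in COLO-205 (6.33 against 3.14 distal peaks per 100 kb) and less dense in DU-145 (0.487 against 0.944), OVCAR-3 (0 against 2.31) and SKOV-3 (0.487 against 0.539). That of SOX7 was denser in DU-145 (4.84 against 1.81), COLO-205 (2.42 against 0.300) and SKOV-3 (0.967 against 0.200) and less dense in OVCAR-3 (0 against 0.500).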

How the data were processed

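Peak lists of 4 H3K27ac ChIP-seq libraries, 1 per line, were analysed as deposited. The authors mapped reads to hg19 with Bowtie2 2.1.0 and called narrow peaks per library with MACS2 2.1.0.20150603 at a q-value below 0.001. The deposited columns are a score (10 times the −log10 q), a fold enrichment ratio, a −log10 p and a −log10 q, and a summit, none scaled between libraries. Close neighbours were said to be merged, but the deposited lists hold unmerged peaks, which were used. From fold and −log10 p the whole-number summit pileup was solved (at least 99.9% of summits), and the tags of a library from its lowest background, its smallest peak width and 2700000000 genome positions. The solving and the overlap code were tested on simulated data.

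Genes and starts came from GENCODE 44 lifted to GRCh37, while the study used release 18. No peak lay past a GRCh37 chromosome end. Peaks were compared by an overlap of at least 1 bp, and no test was run. Some markers and sequences are not reported here. All 10 members are named, with the promoter and distal peak of highest fold in each line and the 1 gene most similar in pattern: marked in the same lines, with the smallest mean percentile difference. The members and lists were chosen with earlier results of these data known. Other settings tried were a −log10 q minimum of 5 or 10, merging, equal list lengths, other promoter and distal windows, protein-coding transcripts, summit position, distance from starts of any gene, the nearest coding start, and an overlap of 50% of the peak. Peaks away from other genes' starts, counts or shares without SOX21, SOX2 or SOX5, and summits without repeat words were chosen later, with the values known. The scripts ran in Python 3.11.15 with pysam 0.24.0, pandas 2.3.3, numpy 2.4.6, scipy 1.17.1 and matplotlib 3.10.9.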

Additional observations from a re-analysis of the deposited data

How the results depend on the processing

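No paired analysis was possible because each line has a single library. Of 133 values under other settings, 99 stayed near the main value (within 1.5 times, or within the interval of a share) and 34 moved. With lists of equal length, the members marked were 0 in COLO-205, 2 in DU-145 and 4 in OVCAR-3, all genes marked were 4399, 7614 and 7645, and the distal peaks 6, 0 and 5. The overlapped share was then 0% in OVCAR-3 and 33.3% in SKOV-3. In SKOV-3 1 member was marked with protein-coding transcripts or with peaks away from other genes' starts. With a −log10 q minimum of 10, COLO-205 had 6380 marked genes and 33 distal peaks, DU-145 had 6, OVCAR-3 had 47 and SKOV-3 had 2, and the overlapped share was 8.51% in OVCAR-3, 16.7% in DU-145 and 100% in SKOV-3. It was 100% in SKOV-3 at 5 as well. A window of 50 kb gave 57 distal peaks in COLO-205, and one of 500 kb gave 328 there, 256 in OVCAR-3, 189 in DU-145 and 17 in SKOV-3. With the nearest coding start SKOV-3 had 3. Without SOX5 DU-145 had 21, with an overlapped share of 23.8%, and OVCAR-3 35, and without repeat words the counts were 56, 19 and 42 in COLO-205, DU-145 and OVCAR-3. Shorter lists and windows hold fewer peaks by construction, so counts of distal peaks depend on the threshold. A missing peak is a summit under the threshold of its library, not a measured absence.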

Other observations

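Among 9 other SOX genes outside the described set, 4 had a promoter peak in COLO-205 (SOX1, SOX12, SOX15 and SOX30), 2 in DU-145 (SOX12 and SOX15), 3 in OVCAR-3 (SOX12, SOX15 and SOX17) and 2 in SKOV-3 (SOX12 and SOX17). SOX17, an endoderm factor listed above among the ovarian markers, had a fold of 17.0 in OVCAR-3 and 6.93 in SKOV-3 and no promoter peak in COLO-205 or DU-145. Its window held 29 distal peaks in OVCAR-3, with a highest fold of 18.9. SOX12, the third SOXC gene, was marked in all 4 lines, as SOX4 was, with folds of 7.20 in OVCAR-3, 6.82 in DU-145, 4.62 in SKOV-3 and 3.87 in COLO-205. SOX15 had its highest fold in DU-145, at 13.9, beside 5.00 in COLO-205 and 4.93 in OVCAR-3.

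SOX1, a SOXB gene on chromosome 13 like SOX21, was likewise marked in COLO-205 alone, with a fold of 8.25. Its window held 107 distal peaks in COLO-205, 52.3 per 100 kb, and 0 in each of the other three lines. SOX3, SOX10, SOX14 and SOX18 had no promoter peak in any line.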
